A study of Homo sapiens with 8 samples.

Results

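Nucleotide synthesis and one-carbon enzymes make the building blocks of RNA and DNA, and their transcripts were followed across 4 genotypes of the human osteosarcoma line U2OS. The set holds 36 genes, chosen by symbol from the textbook pathways, out of 19414 genes in each deposited table. All 36 were in the tables. Of the 36, 35 passed the filter on low values that left 9673 genes for testing, and CTPS2 did not. The genes were read in 5 branches: 11 enzymes of de novo purine synthesis, 5 of de novo pyrimidine synthesis, 6 that make deoxynucleotides, 9 of salvage and nucleotide phosphorylation, and 5 of folate-dependent one-carbon metabolism.

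Cells build purines stepwise on an activated ribose phosphate and build pyrimidines as a ring that is attached to it afterwards, while salvage enzymes reuse free bases and nucleosides. Folate carries the one-carbon units that close the purine ring and that turn dUMP into dTMP, and ribonucleotide reductase converts ribonucleotides to deoxyribonucleotides for DNA. MYC is a transcription factor that binds the E-box sequence CACGTG, and genes of purine and pyrimidine synthesis are among its known targets. Several deoxynucleotide enzymes are instead known for transcription that follows the cell cycle, with highest levels around S phase.

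The 4 groups were cells labelled with Zab and MYC overexpression together (Zab+MYC), MYC overexpression alone (MYC), Zab alone (Zab) and neither (WT), with 2 RNA-seq libraries in each. Zab is written Zαβ in the design, a name in general use for the Zα and Zβ domains of ADAR1, an enzyme that edits RNA. The promoters, vectors and cell clones are not described in the labels, and all groups are 1 cancer cell line. The title of the series names MYC, FACT and Z-DNA, and the design asks how expression under MYC differs with and without Zab.

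Values are CPM, exon tags scaled to the same total in each library, with TMM factors, which makes most genes equal on balance between libraries. Differences are on the log2(CPM + 2) scale with their standard error (SE), and a gene is called when its limma p, adjusted by Benjamini-Hochberg over all genes tested, lay under 0.05. Exon tags per library ran from 711206 to 1037216 in Zab+MYC, 1119458 to 1326166 in MYC, 686992 to 805346 in Zab and 756377 to 909601 in WT. The 2 libraries of a group differed by no more than the sampling noise: the chi-square per degree of freedom over tested genes was 0.997 in Zab+MYC, 0.992 in MYC, 0.999 in Zab and 1.02 in WT. Nothing in the labels says that they came from separate cultures, so the p-values compare these libraries and measure little more than counting noise. For that reason the value of each library is given, and the pairs were also summed and counted as 1 sample. Among genes of at least 2000 tags in a pair the same chi-square was 1.60 in Zab+MYC (106 genes), 1.15 in MYC, 1.36 in Zab and 1.34 in WT. The pairs were thus not identical. The size of a tag in the deposited values was an assumption, and these chi-squares depend on it. The MYC gene itself had 707 and 705 CPM in Zab+MYC, 1237 and 1289.6 CPM in MYC, 229.5 and 194 CPM in Zab, and 72.6 and 94.8 CPM in WT, and ADAR, whose transcript could hold the Zab sequence, had 1068 and 1019 CPM in Zab+MYC, 247 and 230.4 CPM in MYC, 6003 and 6198 CPM in Zab, and 264 and 269.6 CPM in WT. In both genes the 4 groups stood apart, MYC in Zab also lay above WT, and introduced and endogenous transcripts are not separated. Of 7 mesenchymal and bone markers all had tags, although COL1A2 reached at most 0.709 CPM, and none of 8 epithelial, blood and endothelial markers exceeded 5.05 CPM. In bulk RNA, fewer cells of a kind and less RNA per cell cannot be told apart.

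In MYC cells most of the purine, pyrimidine and kinase transcripts were higher than in WT cells, whereas 3 members of the deoxynucleotide branch were lower. In all, 20 of the 35 tested members were called higher in MYC than in WT, against 27.8% of all genes tested, and 3 were called lower, against 30.4% (58.2% of all genes were called in either direction). The median log2 difference was 0.73 over the members and -0.04 over all genes. At least 2-fold higher were 14 members, against 12.3% of all genes. The largest differences were those of AK4, UCK2, IMPDH1 and PPAT, and TK1 was the member that lay furthest below WT.

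Zab cells had higher levels than WT cells of members in all branches but the deoxynucleotide one, where 4 members were lower. Against WT, 11 members were higher in Zab, with 13.1% of all genes called higher, and the 4 lower ones compare with 11.3% called lower. Comparisons that use the same WT, MYC or Zab libraries are not independent of each other. The median of the members was 0.11, against 0.00 for all genes. These directions depend on the scaling: on the deposited scale, where the median of all genes itself lay at -0.51, 2 members (NME1 and ADK) were higher in Zab and 16 were lower, and of all genes 251 were higher and 4767 lower. The folder names in the file headers carry the word spikein and dm6 is among the builds named, but whether the deposited scale is set by a spike-in is not stated, so which scale is nearer to RNA per cell is unknown. The exon share of the tags was 60.6% to 60.9% in Zab and 70.6% to 71.1% in WT, and its part in the result was not tested.

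With MYC overexpressed in both groups, 8 members were lower in Zab+MYC than in MYC, with 8.14% of all genes called lower, and 1, TYMS, was higher, with 11.8% called higher. The median of the members was -0.20 and that of all genes 0.00. The deposited scale, with a median of all genes of -0.31, gave 24 members lower, TYMS not called, and 575 genes higher and 2947 lower in all. With library totals in place of TMM, 6 members were lower, 1 was higher, and the split of all genes was 1335 higher and 570 lower. Of the 9 calls, 5 were made without Zab+MYC replicate 2 and 4 without MYC replicate 1. The MYC transcript itself was lower in Zab+MYC than in MYC by 0.84 ± 0.091 on the log2 scale, and its part in these differences was not tested.

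Where Zab was present in both groups, 14 members were higher in Zab+MYC than in Zab, with 14.3% of all genes called higher, and no member was lower by limma, edgeR or DESeq2, with 12.5% of all genes called lower by limma and 26.8% called in either direction. At an unadjusted limma p under 0.05, 1 member (PFAS) was lower. The median was 0.25 over the members and -0.01 over all genes. The deposited scale gave 20 members higher, with 2159 genes higher and 783 lower in all. The difference between the MYC difference with Zab and that without Zab was tested as an interaction. A lower value is a log2 MYC difference that is less positive, or more negative, with Zab than without. The interaction called 15 members lower, with 13.3% of all genes called lower. Among them was PFAS, with a MYC difference of 0.53 without Zab and -0.84 with Zab, neither of them called. The interaction called 4 members higher, with 14.6% of all genes called higher and 27.9% called in either direction, and all 4 are deoxynucleotide enzymes. On the deposited scale the interaction gave 11 members lower and 6 higher, with 2061 genes higher and 829 lower in all.

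**Figure D1:**
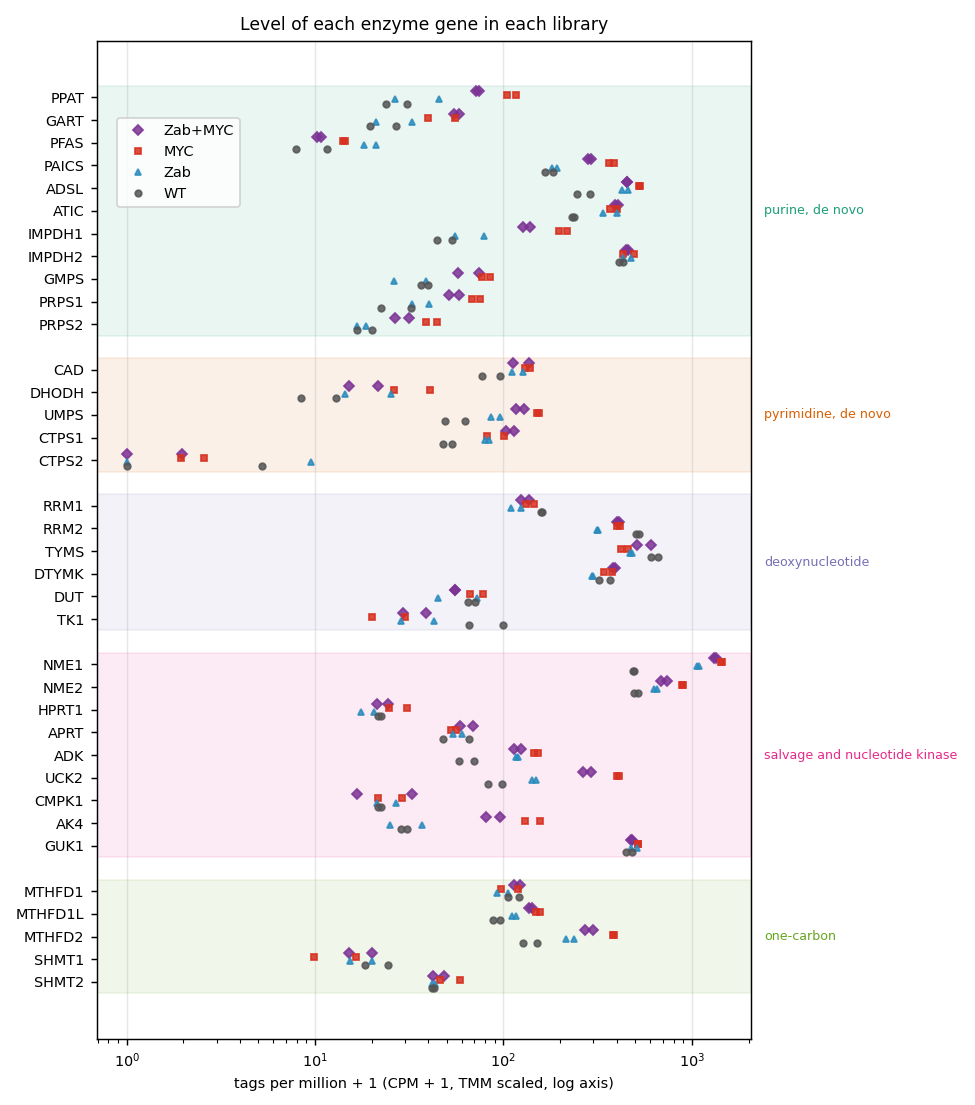
CPM + 1 (log axis) of each of the 36 members in each of the 8 libraries, by branch, with 1 point per library and colours for Zab+MYC, MYC, Zab and WT. In the purine, pyrimidine and kinase branches the WT points mostly lie lowest, and in the deoxynucleotide branch the WT points of RRM2 and TK1 lie highest.

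**Figure D2:**
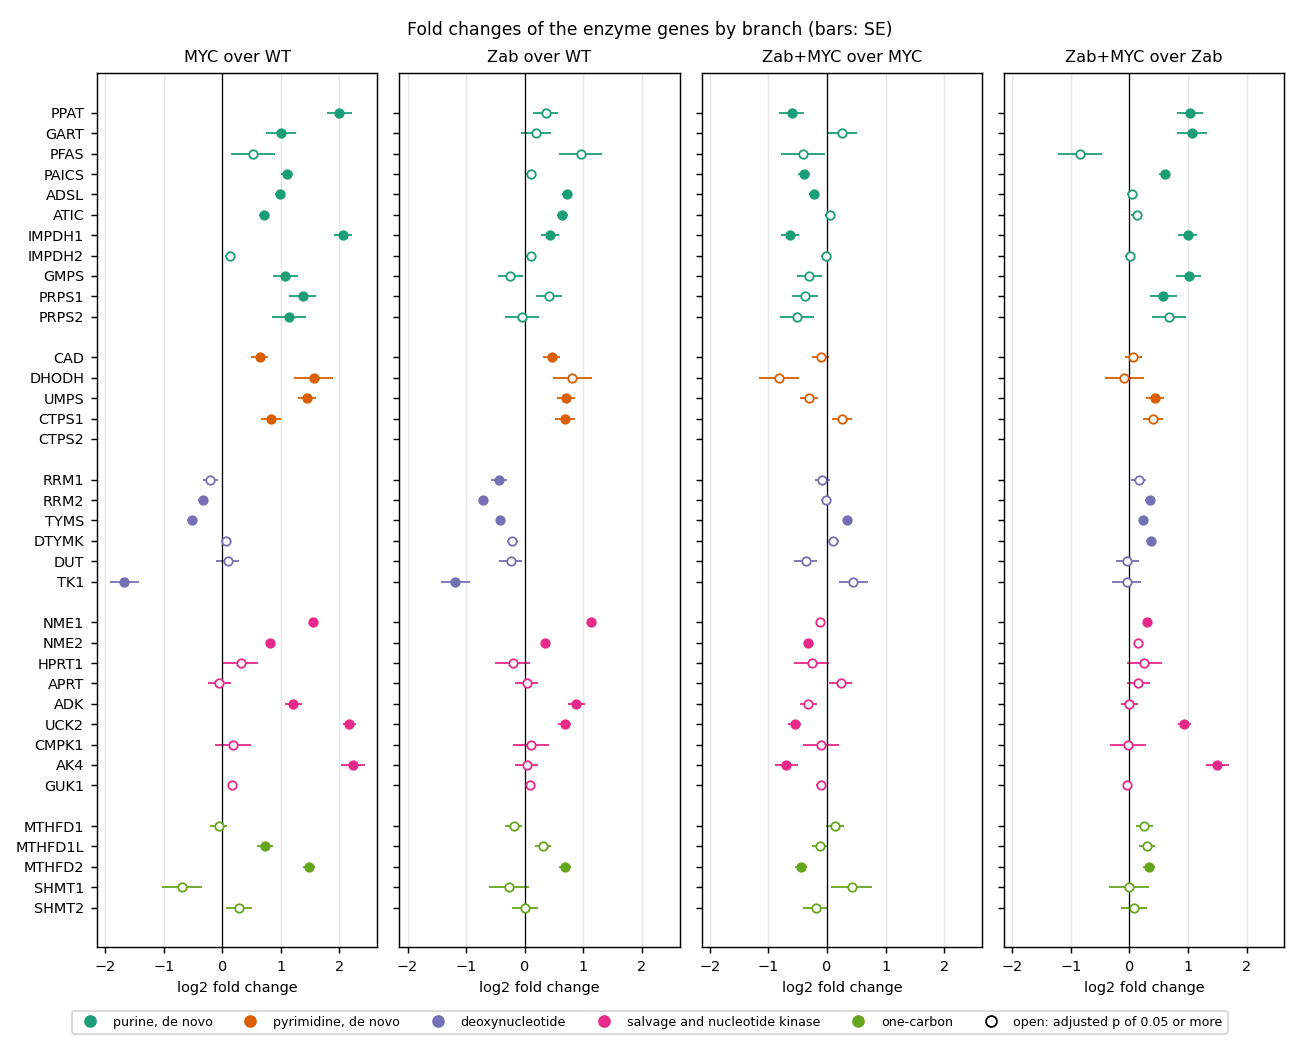
Log2 differences of the 35 tested members in the 4 pairwise comparisons, with bars of 1 SE. The members with the largest differences between MYC and WT, AK4 (2.23), UCK2 (2.16), IMPDH1 (2.06) and PPAT (1.99), have smaller differences between Zab+MYC and Zab (1.50, 0.93, 0.99 and 1.04).

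Promoter sequences are shown for the 4 members with the largest MYC difference, for NME1, the most abundant member in MYC, and for TK1, the member furthest below WT, because several members moved together and the E-box is the known MYC motif. Each is 300 bases, 250 before and 50 after the annotated start, 5′ to 3′ on the strand of the gene, from RefSeq on GRCh38.p14. Capitals mark CACGTG, which reads the same on both strands. The windows are chr1:65147302-65147601 (+) for AK4, chr1:165827364-165827663 (+) for UCK2, chr7:128409933-128410232 (-) for IMPDH1, chr4:56435566-56435865 (-) for PPAT, chr17:51153309-51153608 (+) for NME1 and chr17:78187155-78187454 (-) for TK1.
AK4: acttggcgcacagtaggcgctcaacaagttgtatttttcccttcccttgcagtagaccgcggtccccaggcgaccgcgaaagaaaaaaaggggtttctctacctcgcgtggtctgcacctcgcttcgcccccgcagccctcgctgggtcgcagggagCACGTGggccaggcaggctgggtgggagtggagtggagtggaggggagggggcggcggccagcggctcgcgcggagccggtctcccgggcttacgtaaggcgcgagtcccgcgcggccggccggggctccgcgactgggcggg
UCK2: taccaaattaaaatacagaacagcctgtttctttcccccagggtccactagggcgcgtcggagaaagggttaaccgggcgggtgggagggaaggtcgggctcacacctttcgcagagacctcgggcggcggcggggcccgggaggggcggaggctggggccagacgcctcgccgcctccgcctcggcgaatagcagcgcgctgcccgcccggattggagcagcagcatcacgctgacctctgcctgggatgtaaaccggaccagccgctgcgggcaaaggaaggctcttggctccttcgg
IMPDH1: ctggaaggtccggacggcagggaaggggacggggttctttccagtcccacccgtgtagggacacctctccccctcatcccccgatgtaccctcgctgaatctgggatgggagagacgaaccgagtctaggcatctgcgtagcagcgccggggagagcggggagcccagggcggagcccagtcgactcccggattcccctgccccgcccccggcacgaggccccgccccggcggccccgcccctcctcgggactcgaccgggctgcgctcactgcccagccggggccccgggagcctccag
PPAT: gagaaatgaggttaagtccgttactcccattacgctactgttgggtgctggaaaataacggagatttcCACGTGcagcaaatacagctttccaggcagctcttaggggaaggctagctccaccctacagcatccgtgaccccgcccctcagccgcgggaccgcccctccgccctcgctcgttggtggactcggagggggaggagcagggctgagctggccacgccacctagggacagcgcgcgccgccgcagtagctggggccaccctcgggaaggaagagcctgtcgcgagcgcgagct
NME1: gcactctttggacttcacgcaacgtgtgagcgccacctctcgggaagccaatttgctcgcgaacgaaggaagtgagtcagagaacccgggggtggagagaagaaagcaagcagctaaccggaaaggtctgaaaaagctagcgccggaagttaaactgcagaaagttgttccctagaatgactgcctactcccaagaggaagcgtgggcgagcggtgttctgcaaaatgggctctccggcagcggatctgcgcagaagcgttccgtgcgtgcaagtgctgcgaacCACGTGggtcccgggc
TK1: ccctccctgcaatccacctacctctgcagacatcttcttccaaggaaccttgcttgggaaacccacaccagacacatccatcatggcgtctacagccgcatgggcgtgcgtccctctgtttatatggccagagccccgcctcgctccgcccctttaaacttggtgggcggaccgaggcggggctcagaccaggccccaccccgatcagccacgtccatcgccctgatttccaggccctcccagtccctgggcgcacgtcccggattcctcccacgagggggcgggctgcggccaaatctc

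Among these 6 windows CACGTG stands in those of AK4, PPAT and NME1 and not in the ones shown for UCK2, IMPDH1 and TK1. In AK4 it begins 93 bases before the start (position -93), in PPAT at -182 and in NME1 at +35. A window with CACGTG was shown where a gene had one, so the AK4 window, 1 of 4, was picked for the motif. Another AK4 window has CACGTG at +18. Of the 33 members with a window in the table, 8 (24.2%) had CACGTG in at least 1 window: AK4, ATIC, DHODH, MTHFD1, MTHFD1L, NME1, PAICS and PPAT. Among all 27305 genes with a window the share was 8.77%. That background was not limited to the 9673 genes tested, and the share among tested genes was not computed. Whether CACGTG is more frequent in members than in other expressed genes was therefore not tested. The PPAT and PAICS genes lie head to head on chromosome 4, their windows share 236 bases, and they hold the same CACGTG, so these are not independent matches. The start behind the PAICS window lies closer to PPAT than the start of the PAICS transcripts counted here. Of the 8 with CACGTG, 7 were higher in MYC than in WT, all but MTHFD1. Of the 24 tested members whose windows lack it, 12 were higher and 3 lower. Of all genes tested 27.8% were called higher and 30.4% lower. These shares were not split by CACGTG, and a link between the motif and the MYC difference was not tested. ADSL, IMPDH2 and SHMT2 had no window. A match is a description of the letters and shows no binding.

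De novo purine synthesis had 9 of 11 members higher in MYC than in WT, all but PFAS and IMPDH2, with 27.8% of all genes called higher. PRPS1 and PRPS2 make phosphoribosyl pyrophosphate, the activated ribose at the head of the route. PRPS1 had 50.1 and 57.4 CPM in Zab+MYC, 66.8 and 73.8 CPM in MYC, 31.6 and 39.2 CPM in Zab, and 21.5 and 31.3 CPM in WT. Its libraries formed 4 separate groups, highest in MYC and lowest in WT, with a log2 difference between MYC and WT of 1.37 ± 0.23 (SE; limma adjusted p = 2.96e-07). PRPS2 had 30.7 and 25.5 CPM in Zab+MYC, 37.8 and 43.6 CPM in MYC, 15.8 and 17.7 CPM in Zab, and 15.8 and 19.1 CPM in WT, where Zab and WT overlapped and both MYC-overexpressing groups lay above them (1.14 ± 0.29 for MYC against WT).

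PPAT commits ribose to the purine ring and is the regulated first enzyme of the route. It is the gene on the minus strand of chromosome 4 (hg19, 57259528 to 57301781), with its E-box printed above. PPAT had 70.1 and 73.0 CPM in Zab+MYC, 116 and 103 CPM in MYC, 44.5 and 25.7 CPM in Zab, and 22.7 and 29.7 CPM in WT. MYC libraries were highest, Zab+MYC next, and Zab and WT overlapped. MYC exceeded WT by 1.99 ± 0.21 on the log2 scale (limma adjusted p = 7.29e-13), 3.99-fold, and Zab+MYC exceeded Zab by 1.04 ± 0.21, 2.05-fold. The 2 MYC differences differed by -0.96 ± 0.30 (limma adjusted p = 0.0116).

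PAICS, which catalyses a pair of middle steps, is the head-to-head neighbour on the plus strand (57302426 to 57330744). It had 279 and 289 CPM in Zab+MYC, 385 and 364 CPM in MYC, 181 and 192 CPM in Zab, and 182 and 166 CPM in WT. Zab and WT again overlapped, Zab+MYC stood above both, and MYC stood above Zab+MYC, with 1.10 ± 0.099 for MYC against WT and -0.40 ± 0.099 for Zab+MYC against MYC (limma adjusted p = 0.002). The neighbours thus had the same order of groups, with a larger fold for PPAT (3.99) than for PAICS (2.14) in MYC against WT. That difference between the genes was not tested.

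GART, which carries several activities of the route including a folate-dependent one, had 53.5 and 57.4 CPM in Zab+MYC, 38.8 and 54.3 CPM in MYC, 20.1 and 31.8 CPM in Zab, and 25.9 and 18.5 CPM in WT. Both MYC-overexpressing groups overlapped each other and lay above Zab and WT, which also overlapped (1.002 ± 0.25 for MYC against WT, 1.07 ± 0.25 for Zab+MYC against Zab). GMPS, which makes GMP from XMP, had 73.5 and 56.7 CPM in Zab+MYC, 84.1 and 76.1 CPM in MYC, 38.0 and 25.1 CPM in Zab, and 35.3 and 38.7 CPM in WT, so that MYC and Zab+MYC again lay above Zab and WT. Its MYC difference was 1.07 ± 0.21 without Zab and 1.02 ± 0.21 with it, and the interaction was -0.06 ± 0.30 (limma adjusted p = 0.915).

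ADSL and ATIC act late in the route, ATIC in its closing steps with a folate one-carbon unit. ADSL had 449.6 and 454 CPM in Zab+MYC, 525 and 530.2 CPM in MYC, 455 and 423 CPM in Zab, and 244 and 289 CPM in WT. WT lay lowest, MYC highest, and Zab+MYC overlapped Zab, so that the MYC difference was 0.99 ± 0.081 without Zab and 0.04 ± 0.081 with it (interaction -0.94 ± 0.11, limma adjusted p = 2.91e-10). ATIC had 407 and 391 CPM in Zab+MYC, 368 and 402 CPM in MYC, 399 and 336 CPM in Zab, and 232 and 236 CPM in WT, and here the 3 groups other than WT overlapped (0.71 ± 0.088 for MYC and 0.64 ± 0.088 for Zab, each against WT). PFAS, another middle step, had 9.73 and 9.21 CPM in Zab+MYC, 13.1 and 13.5 CPM in MYC, 20.1 and 17.1 CPM in Zab, and 6.94 and 10.6 CPM in WT. Zab was highest in PFAS and no pairwise comparison was called, while the interaction was -1.37 ± 0.53 (limma adjusted p = 0.0423) on at most 17.0 tags per library.

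IMPDH1 and IMPDH2 make XMP, the step that leads to guanine nucleotides. IMPDH1 had 126 and 138 CPM in Zab+MYC, 215 and 196 CPM in MYC, 54.5 and 77.7 CPM in Zab, and 52.4 and 43.4 CPM in WT. The 4 groups stood apart in the order MYC, Zab+MYC, Zab and WT, with a log2 difference of 2.06 ± 0.16 for MYC against WT and 0.99 ± 0.16 for Zab+MYC against Zab (interaction -1.07 ± 0.22, limma adjusted p = 0.000122). IMPDH2 had 458 and 445 CPM in Zab+MYC, 429 and 493 CPM in MYC, 473 and 429.6 CPM in Zab, and 430.3 and 412 CPM in WT, nearly the same level throughout, and its MYC difference was 0.13 ± 0.078 (limma adjusted p = 0.153; 95% interval from the SE, -0.02 to 0.28), with an adjusted p of 0.0351 by edgeR. For IMPDH1 the tables keep 5 different transcripts of 2306 to 2578 bases across libraries.

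Against WT, Zab had ADSL, ATIC and IMPDH1 called higher in this branch, with 13.1% of all genes called higher. Against MYC, Zab+MYC had PPAT, PAICS, ADSL and IMPDH1 called lower, with 8.14% of all genes called lower. Against Zab, Zab+MYC had 6 called higher, with 14.3% of all genes called higher: PPAT, GART, PAICS, IMPDH1, GMPS and PRPS1. Some calls rested on single libraries: without any 1 of the 4 Zab+MYC and MYC libraries the limma adjusted p for Zab+MYC against MYC was 0.101 to 0.254 for PPAT and 0.115 to 0.185 for ADSL. Without MYC replicate 1 it was 0.0608 for IMPDH1 and 0.0624 for PAICS. Without Zab replicate 1 the Zab+MYC to Zab adjusted p of GART was 0.0559, and that of PRPS1 was 0.0624 to 0.260 without MYC replicate 1 or 2, Zab+MYC replicate 1 or 2 or Zab replicate 1. The IMPDH1 difference between Zab and WT had 0.0519 to 0.526 without any 1 library other than Zab replicate 1 or WT replicate 1. The interaction p was 0.0562 to 0.153 for PFAS without any 1 library other than WT replicate 2, and 0.0549 to 0.175 for PPAT without Zab+MYC, MYC, Zab or WT replicate 1.

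All 4 tested enzymes of de novo pyrimidine synthesis were higher in MYC than in WT, with 27.8% of all genes called higher. CAD, UMPS and CTPS1 were called higher in Zab than in WT, with 13.1% of all genes called higher. CAD joins the opening steps in 1 protein. It had 135 and 112 CPM in Zab+MYC, 138 and 128 CPM in MYC, 126 and 109.5 CPM in Zab, and 94.6 and 75.8 CPM in WT, with WT lowest and Zab+MYC overlapping both MYC and Zab (0.64 ± 0.14 for MYC against WT, 0.46 ± 0.14 for Zab against WT). DHODH, the mitochondrial step that forms orotate, had 14.1 and 20.6 CPM in Zab+MYC, 39.7 and 25.4 CPM in MYC, 24.4 and 13.5 CPM in Zab, and 12.0 and 7.42 CPM in WT. MYC libraries were highest and WT lowest, Zab+MYC overlapped Zab, and each library had 7 to 42.5 tags.

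UMPS turns orotate into UMP. Its values were 116 and 128 CPM in Zab+MYC, 149 and 153 CPM in MYC, 95.4 and 84.5 CPM in Zab, and 61.2 and 48.2 CPM in WT. The 4 groups stood apart in the order MYC, Zab+MYC, Zab and WT, with 1.44 ± 0.15 for MYC against WT (limma adjusted p = 4.92e-13), 2.72-fold, and 0.43 ± 0.15 for Zab+MYC against Zab, 1.35-fold. The interaction was -1.01 ± 0.22 for UMPS (limma adjusted p = 0.000178), -1.64 ± 0.48 for DHODH (0.00612) and -0.57 ± 0.20 for CAD (0.0269).

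CTPS1 and CTPS2 make CTP from UTP. CTPS1 had 102 and 113 CPM in Zab+MYC, 80.3 and 99.9 CPM in MYC, 78.9 and 82.6 CPM in Zab, and 46.7 and 52.4 CPM in WT. Zab+MYC was highest here, MYC overlapped Zab, and WT was lowest, with 0.83 ± 0.17 for MYC and 0.68 ± 0.17 for Zab against WT. CTPS2 had 1 and 0 tags in Zab+MYC, 1 and 2 tags in MYC, 0 and 7 tags in Zab, and 0 and 4 tags in WT, too few to compare. In CAD the Zab to WT adjusted p was 0.148 without Zab replicate 1 and 0.215 without WT replicate 2, and its interaction p was 0.109 to 0.164 without Zab+MYC replicate 2, MYC replicate 1, Zab replicate 1 or WT replicate 2. The DHODH interaction p was 0.0549 to 0.0788 without Zab+MYC, MYC or Zab replicate 1. The UMPS difference between Zab+MYC and Zab had 0.0552 to 0.197 without either Zab+MYC library or Zab replicate 2.

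In calls against WT the deoxynucleotide branch differed in direction from the others with TMM scaling. Between Zab+MYC and Zab it did not: 3 of its 6 members were higher and 0 lower, with 14.3% of all genes called higher. On the deposited scale 16 members were lower in Zab than in WT and 2 higher. The lower ones there included PAICS (-0.44), IMPDH2 (-0.44) and GUK1 (-0.45) of other branches. Against WT, 3 of the 6 (RRM2, TYMS and TK1) were lower in MYC, with 30.4% of all genes called lower. In Zab 4 of the 6 (RRM1, RRM2, TYMS and TK1) were lower than in WT, with 11.3% of all genes called lower. No member of the branch was higher in MYC or in Zab than in WT by limma, edgeR or DESeq2, or at an unadjusted limma p under 0.05. TK1, the cytosolic thymidine kinase that salvages thymidine, had 38.0 and 28.4 CPM in Zab+MYC, 29.0 and 19.0 CPM in MYC, 41.6 and 27.5 CPM in Zab, and 64.4 and 98.0 CPM in WT. WT stood above the 3 other groups, which overlapped one another. The log2 difference was -1.67 ± 0.25 for MYC against WT (limma adjusted p = 2.35e-08), 3.19-fold lower, and -1.18 ± 0.25 for Zab against WT (0.000143), 2.27-fold lower. Between Zab+MYC and Zab it was -0.04 ± 0.25, so the interaction was 1.63 ± 0.35 (limma adjusted p = 0.000197). The transcript kept for TK1 was 1418 bases long in both MYC libraries and 1683 bases in both WT libraries, with 1 of each in Zab+MYC and in Zab, and its part in the result was not tested.

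TYMS, thymidylate synthase, had 608 and 510.3 CPM in Zab+MYC, 418 and 460.0 CPM in MYC, 469.8 and 479 CPM in Zab, and 604 and 662 CPM in WT. MYC was lowest, Zab next, and Zab+MYC overlapped WT at the top. Its difference was -0.53 ± 0.075 for MYC against WT and 0.34 ± 0.075 for Zab+MYC against MYC (adjusted p = 0.000347 by limma), and the interaction was 0.76 ± 0.11 (1.95e-08). TYMS lies across from ENOSF1 and TYMSOS on the opposite strand and the strand setting of the counting is unknown.

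RRM1 and RRM2 are the large and small subunits of ribonucleotide reductase. RRM2 had 398 and 409 CPM in Zab+MYC, 401 and 417 CPM in MYC, 318 and 313 CPM in Zab, and 503 and 527 CPM in WT. WT was highest, Zab lowest, and the 2 MYC-overexpressing groups overlapped in between, and the difference was -0.33 ± 0.078 for MYC against WT but 0.35 ± 0.078 for Zab+MYC against Zab (interaction 0.68 ± 0.11, limma adjusted p = 8.79e-07). RRM1 had 124 and 136 CPM in Zab+MYC, 131 and 144 CPM in MYC, 109 and 124 CPM in Zab, and 159.6 and 157 CPM in WT. WT was again highest, Zab+MYC overlapped MYC and Zab, and Zab against WT was -0.44 ± 0.13 (limma adjusted p = 0.00776) while MYC against WT was -0.20 ± 0.13 (0.174).

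DTYMK, which phosphorylates dTMP, had 382 and 388 CPM in Zab+MYC, 374 and 339.8 CPM in MYC, 299 and 293 CPM in Zab, and 320.5 and 366 CPM in WT. Zab was lowest, Zab+MYC highest, MYC overlapped WT, and Zab+MYC exceeded Zab by 0.38 ± 0.086 (interaction 0.32 ± 0.12, limma adjusted p = 0.0414). DUT, which removes dUTP, was called in no comparison by limma, edgeR or DESeq2 and ran from 44.1 to 76.9 CPM. Without 1 library some calls ended: the RRM1 difference between Zab and WT had an adjusted p of 0.104 without Zab replicate 1 and 0.0518 without WT replicate 1. TYMS had 0.136 for Zab+MYC against MYC without Zab+MYC replicate 1, and 0.420 and 0.0855 for Zab+MYC against Zab without Zab+MYC replicate 1 and without Zab replicate 1. The DTYMK interaction had 0.0591 to 0.279 without any 1 library other than MYC replicate 1 or WT replicate 1.

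Other genes of the G1/S transition and DNA replication, given beside this branch because its enzymes are known to follow the cell cycle, had 6 of 21 tested higher and 5 lower in MYC than in WT, near the 27.8% and 30.4% of all genes. In Zab against WT 7 of the 21 were lower, with 11.3% of all genes called lower, and by limma none was higher, also at an unadjusted p under 0.05. In Zab+MYC against Zab 7 were higher, with 14.3% of all genes called higher. Whether the share of cells in S phase moved with these transcripts was not tested.

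In the salvage and kinase branch 5 of 9 members (NME1, NME2, ADK, UCK2 and AK4) were higher in MYC than in WT, with 27.8% of all genes called higher. The transcript with the largest fold of all members was AK4, a mitochondrial adenylate kinase, whose E-box window is printed above. AK4 had 94.4 and 79.4 CPM in Zab+MYC, 156 and 128 CPM in MYC, 35.9 and 23.9 CPM in Zab, and 29.7 and 27.5 CPM in WT. The MYC libraries were highest, those of Zab+MYC next, and Zab overlapped WT. MYC against WT was 2.23 ± 0.20 (limma adjusted p = 6.17e-16), 4.69-fold, and Zab+MYC against Zab was 1.50 ± 0.20, 2.83-fold.

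UCK2 phosphorylates uridine and cytidine in salvage. It had 265 and 289 CPM in Zab+MYC, 402 and 410.4 CPM in MYC, 141 and 147 CPM in Zab, and 81.4 and 97.5 CPM in WT. The 4 groups stood apart in the order MYC, Zab+MYC, Zab and WT. MYC exceeded WT 4.48-fold (2.16 ± 0.11), Zab+MYC exceeded Zab 1.91-fold (0.93 ± 0.11), and the interaction was -1.23 ± 0.16 (limma adjusted p = 1.43e-09). With each pair summed as 1 sample, the MYC to WT ratio was 4.53, with a counting interval of 3.82 to 5.40, from 948 tags in MYC and 156 in WT.

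NME1 and NME2 are nucleoside diphosphate kinases, which make the triphosphates, and per length NME1 had 1649.7 CPM per kb in Zab+MYC, 1788 in MYC, 1341 in Zab and 610.2 in WT, against 1017, 1272, 930.4 and 731 CPM per kb of NME2 in the same groups. NME1 had 1305 and 1341 CPM in Zab+MYC, 1439 and 1428 CPM in MYC, 1065 and 1086 CPM in Zab, and 485 and 494 CPM in WT. NME2 had 739 and 687 CPM in Zab+MYC, 897 and 887 CPM in MYC, 629.8 and 655 CPM in Zab, and 495 and 515 CPM in WT. In both genes the 4 groups stood apart in the order MYC, Zab+MYC, Zab and WT, and the interaction was -1.25 ± 0.075 for NME1 (limma adjusted p = 1.02e-23) and -0.67 ± 0.089 for NME2 (6.03e-09). The tables also list a readthrough symbol, NME1-NME2, that spans both genes and shares exons with them, so reads may be split or counted more than once among the 3 symbols and both values are uncertain. The readthrough symbol had 1266 and 1228 CPM in Zab+MYC, 1496 and 1489 CPM in MYC, 1067 and 1080.1 CPM in Zab, and 698 and 734 CPM in WT, in the same order of groups.

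ADK, adenosine kinase, had 112 and 123 CPM in Zab+MYC, 145 and 151 CPM in MYC, 119 and 116 CPM in Zab, and 57.4 and 68.9 CPM in WT. Zab+MYC overlapped Zab, MYC lay above them and WT below, with 1.21 ± 0.15 for MYC and 0.88 ± 0.15 for Zab against WT, and 0.00 ± 0.15 for Zab+MYC against Zab (interaction -1.21 ± 0.21, limma adjusted p = 2.59e-06). HPRT1 and APRT, which salvage purine bases, and CMPK1 and GUK1, the UMP/CMP and guanylate kinases, were called in no comparison by limma. By edgeR, GUK1 was higher in MYC than in WT (adjusted p = 0.0165). Their MYC differences by limma were 0.32 ± 0.30, -0.05 ± 0.20, 0.18 ± 0.31 and 0.16 ± 0.073. The base-salvage enzymes ran from 16.5 to 29.9 CPM (HPRT1) and 46.7 to 68.0 CPM (APRT), CMPK1 from 15.6 to 31.6 CPM and GUK1 from 445 to 518 CPM. The AK4 difference between Zab+MYC and MYC (-0.69 ± 0.20) had an adjusted p of 0.149 without Zab+MYC replicate 2 and 0.188 without MYC replicate 1, and the AK4 interaction (-0.73 ± 0.28) had 0.0547 to 0.275 without any 1 library other than Zab replicate 2 or WT replicate 1.

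In the one-carbon branch 2 of 5 members, MTHFD2 and MTHFD1L, were higher in MYC than in WT, with 27.8% of all genes called higher. Both are mitochondrial, but SHMT2, also mitochondrial, was not called. MTHFD2, the mitochondrial methylenetetrahydrofolate dehydrogenase, had 298 and 269 CPM in Zab+MYC, 387 and 383 CPM in MYC, 235 and 213 CPM in Zab, and 149 and 127 CPM in WT. The 4 groups stood apart in the order MYC, Zab+MYC, Zab and WT, with 1.47 ± 0.10 for MYC against WT (limma adjusted p = 2.3e-21), 2.78-fold, and an interaction of -1.13 ± 0.14 (1.2e-09). MTHFD1L, the mitochondrial formate-releasing enzyme, had 136 and 141 CPM in Zab+MYC, 155 and 148 CPM in MYC, 115 and 109.5 CPM in Zab, and 94.6 and 86.9 CPM in WT, in the same order without overlap (0.73 ± 0.14 for MYC against WT).

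MTHFD1, which carries the corresponding activities in the cytosol, had 121 and 113 CPM in Zab+MYC, 118 and 96.0 CPM in MYC, 91.1 and 105 CPM in Zab, and 119 and 104 CPM in WT. Nearly all its groups overlapped, and MYC against WT was -0.07 ± 0.15 (95% interval from the SE, -0.35 to 0.22), although its window holds CACGTG. SHMT1 and SHMT2 pass the one-carbon unit of serine to folate in cytosol and mitochondria. SHMT2 had 47.2 and 41.1 CPM in Zab+MYC, 57.4 and 44.8 CPM in MYC, 42.3 and 41.0 CPM in Zab, and 41.0 and 41.9 CPM in WT, and SHMT1 had 19.0 and 14.2 CPM in Zab+MYC, 8.87 and 15.5 CPM in MYC, 14.3 and 19.0 CPM in Zab, and 23.3 and 17.5 CPM in WT. Neither was called: MYC against WT was 0.28 ± 0.22 for SHMT2 and -0.69 ± 0.34 for SHMT1 (limma adjusted p = 0.274 and 0.0788). The MTHFD2 difference between Zab+MYC and MYC (-0.44 ± 0.10) had an adjusted p of 0.05002 without Zab+MYC replicate 2, and that between Zab+MYC and Zab (0.34 ± 0.10) had 0.131 without Zab+MYC replicate 1 and 0.106 without Zab replicate 2.

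**Figure D3:**
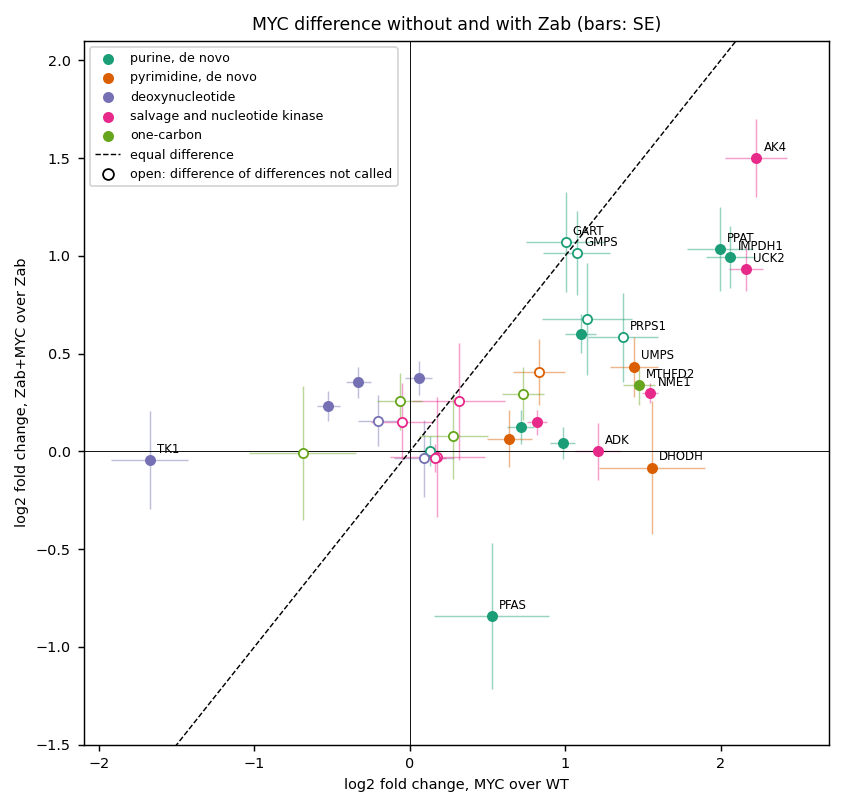
Log2 difference between Zab+MYC and Zab (y axis) against the log2 difference between MYC and WT (x axis) for each of the 35 tested members, coloured by branch, with the line of equal difference. Most purine, pyrimidine and kinase members lie below the line, and RRM2, TYMS, DTYMK and TK1 lie above it.

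Genes of the same reaction or complex did not all keep the same proportions, set per length of the kept transcript. IMPDH1 was 14.7% and 16.4% of IMPDH1 plus IMPDH2 in Zab+MYC, 25.5% and 21.4% in MYC, 6.75% and 11.3% in the Zab libraries, and 7.65% and 6.90% in WT. Both MYC-overexpressing groups thus lay above Zab and WT, which overlapped. MTHFD2 was 63.4% and 62.6% of MTHFD2 plus MTHFD1 in Zab+MYC, 69.8% and 73.8% in MYC, 64.5% and 58.8% in the Zab libraries, and 46.9% and 46.1% in WT, so that WT stood lowest and MYC highest. NME1 was 60.7% and 63.1% of NME1 plus NME2 in Zab+MYC, 58.4% and 58.5% in MYC, 59.7% and 58.5% in the Zab libraries, and 46.1% and 44.9% in WT, again lowest in WT and subject to the readthrough symbol. The share of the small subunit RRM2 in RRM2 plus RRM1 ran from 70.8% to 76.3% over all 8 libraries, and the PRPS1 share of PRPS1 plus PRPS2 from 62.6% to 76.1%. These shares were not tested.

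**Figure D4:**
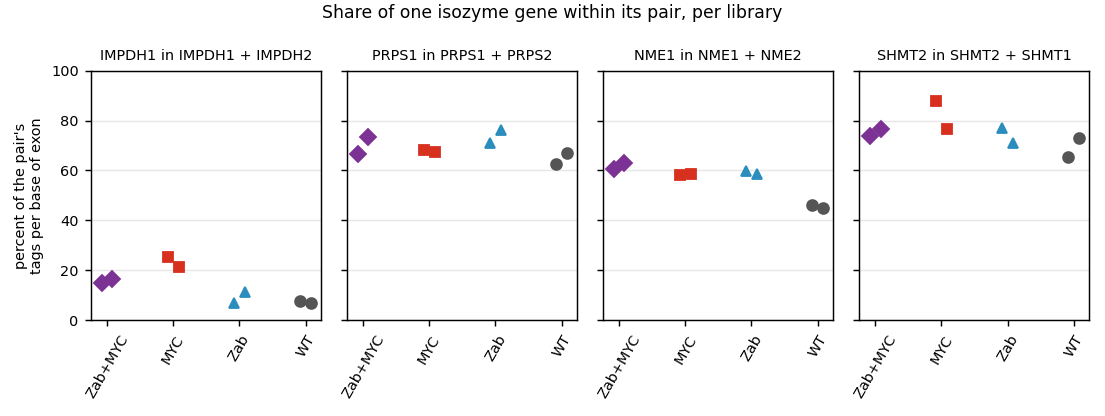
Share, in percent per length, of IMPDH1, PRPS1, NME1 and SHMT2 in a pair with the other isozyme gene in each of the 8 libraries, with 1 point per library and the groups from left to right Zab+MYC, MYC, Zab and WT. The IMPDH1 share lies at 6.75% to 11.3% in Zab and WT and at 14.7% to 25.5% in Zab+MYC and MYC, and the NME1 share is lowest in WT.

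Summed over a branch, transcripts of de novo purine synthesis had 2007 and 1996 CPM in Zab+MYC, 2278 and 2350.3 CPM in MYC, 1732 and 1615 CPM in Zab, and 1268 and 1293 CPM in WT. The salvage and kinase sum, most of it from NME1 and NME2 in MYC, had 3109 and 3102 CPM in Zab+MYC, 3667 and 3618 CPM in MYC, 2603 and 2594 CPM in Zab, and 1683 and 1787 CPM in WT. The deoxynucleotide sum had 1604 and 1526 CPM in Zab+MYC, 1419 and 1456 CPM in MYC, 1308 and 1280 CPM in Zab, and 1716 and 1879 CPM in WT. WT was thus lowest in the first 2 sums and highest in the deoxynucleotide sum, with no overlap among the groups in any of the 3. The pyrimidine sum averaged 371 CPM in Zab+MYC, 408 in MYC, 312 in Zab and 201 in WT, and the one-carbon sum 600.0, 707, 493 and 402 in the same groups. The abundant members dominate each sum.

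**Figure D5:**
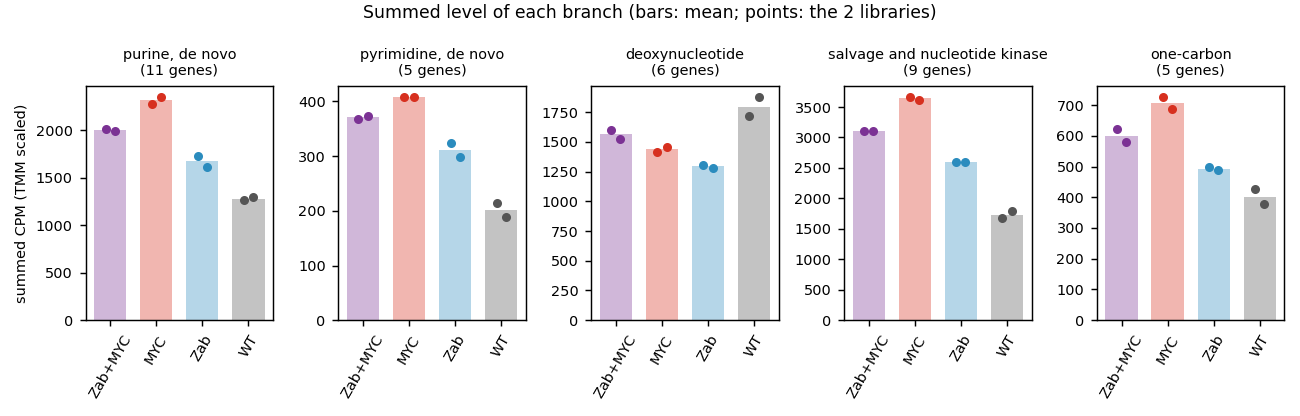
Summed CPM of each branch in each of the 8 libraries, with 1 point per library and the groups from left to right Zab+MYC, MYC, Zab and WT. The purine, pyrimidine, kinase and one-carbon sums are highest in MYC and lowest in WT, while the deoxynucleotide sum is highest in WT (1716 and 1879 CPM) and lowest in Zab (1308 and 1280 CPM).

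Neighbouring genes of the pathway outside the set were called in shares to be read against the 27.8% of all genes higher and 30.4% lower in MYC than in WT. Of 22 tested genes of nucleoside salvage and breakdown, 8 were higher and 7 lower in MYC than in WT, near those shares. PNP, which releases purine bases from nucleosides, had 150.0 and 156 CPM (lowest and highest library) in Zab+MYC, 240 and 243 CPM in MYC, 89.3 and 114 CPM in Zab, and 47.3 and 57.2 CPM in WT, 4.50-fold higher in MYC than in WT. NT5C3A, a pyrimidine nucleotidase (1.72 ± 0.25), and ITPA, which clears deaminated purine triphosphates (1.19 ± 0.21), were higher too. DPYD, which starts pyrimidine breakdown (-1.54 ± 0.47), GMPR2, which turns GMP into IMP (-1.54 ± 0.36), and TK2, the mitochondrial thymidine kinase (-1.42 ± 0.32), were lower. In Zab against WT 7 of the 22 were higher, with 13.1% of all genes called higher.

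Among 15 tested other kinase, purine and transport genes, 5 were higher and 3 lower in MYC than in WT, with 27.8% of all genes called higher and 30.4% lower. SLC29A1, the equilibrative nucleoside transporter, had 232 and 255 CPM (lowest and highest library) in Zab+MYC, 352 and 355 CPM in MYC, 132 and 143 CPM in Zab, and 69.9 and 83.3 CPM in WT, 4.54-fold higher in MYC than in WT. AK6 (1.44 ± 0.24) was higher, whereas the adenylate kinase AK1 (-1.06 ± 0.21) was lower. NME3, of the same kinase family as NME1, was lower in MYC than in WT (-1.43 ± 0.17), so the family did not move as one.

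Of 12 tested folate cycle and transport genes, 2 were higher and 3 lower in MYC than in WT. Both higher ones are transporters: SLC25A32, which carries folate into mitochondria (2.08 ± 0.30), and SLC19A1, the reduced folate carrier (1.72 ± 0.20). Of 9 tested serine and glycine genes, 3 were higher and 3 lower, and GCSH, a protein of the glycine cleavage system, was the 1 past 2-fold (1.13 ± 0.20).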

How the data were processed

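Total RNA of U2OS cells had been sequenced in 8 libraries, 2 in each of 4 groups. The submitters' processing notes name Trim Galore (0.6.6), HOMER (4.11.1) and STAR, whose version they leave out, and the builds hg19 and dm6. The authors deposited a signal per gene: per the file headers, raw exon tags of coding genes (hg19 RefSeq) were counted by HOMER with a single transcript retained for a symbol, which can differ between libraries. Whole steps, within 0.1 step, made up 100% of the deposited values, so the signal is tags times 1 library factor of unstated origin. The header paths carry the word spikein, and whether the factor is a spike-in scaling is not stated. Tags were recovered as 2 steps each, which is an assumption.

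Genes that passed filterByExpr were scaled with TMM factors and fitted by limma with a mean-variance trend on log2(CPM + 2), with 4 residual degrees of freedom and Benjamini-Hochberg adjustment over 9673 genes. The tests also borrowed a median of 67.2 prior degrees of freedom from the spread over all genes. For 2 libraries against 2 the smallest possible p of an exact permutation test is 0.333. The pseudocount understates log2 changes of low genes. The members, lists and tests were chosen with earlier results of these data known. Values in every library are given for members called at 2-fold or more in a pairwise comparison, called in the interaction, or belonging to a paralog pair, and the others by range. Context genes at 2-fold or more in MYC against WT are named, at most 6 a list, except that some are not reported here. Tool versions were limma 3.58.1, edgeR 4.0.16 and DESeq2 1.42.0 in R 4.3.3, and Python 3.11.15. The steps were tested on simulated data.

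Alternatives were RLE factors, library totals, the deposited scale, leaving out the filter, requiring 5 CPM in 2 libraries, pseudocounts of 1 and 5, edgeR and DESeq2 on rounded tags, a replicate block, genes whose transcript was constant, the 4 libraries of a comparison alone and each library left out. Summing each pair as 1 sample, with 95% exact counting intervals, was added after seeing the data. Such intervals hold for counting error alone, since PCR copies of a molecule cannot be told from separate molecules. Of the members, 7 overlap the span of another gene and 5 of these (CTPS2, MTHFD2, SHMT1, SHMT2 and TYMS) one on the opposite strand, and their values are uncertain to that extent.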

Additional observations from a re-analysis of the deposited data

Results flagged for a closer look

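For 19 members the MYC difference with Zab (Zab+MYC minus Zab) differed from that without Zab (MYC minus WT) by limma's interaction test at an adjusted p under 0.05, and all are listed here as log2 values. In de novo purine synthesis it was -0.96 for PPAT, -1.37 for PFAS, -0.50 for PAICS, -0.94 for ADSL, -0.59 for ATIC and -1.07 for IMPDH1. In de novo pyrimidine synthesis it was -0.57 for CAD, -1.64 for DHODH and -1.01 for UMPS. Among salvage enzymes and kinases it was -1.25 for NME1, -0.67 for NME2, -1.21 for ADK, -1.23 for UCK2 and -0.73 for AK4. The one-carbon enzyme MTHFD2 had -1.13. The deoxynucleotide enzymes had positive values, 0.68 for RRM2, 0.76 for TYMS, 0.32 for DTYMK and 1.63 for TK1. In the same contrast the MYC transcript itself had -2.16 and ADAR -2.39, and their part in these values was not tested.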

How the results depend on the processing

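Counts are of calls by limma unless another tool is named, in the order MYC against WT, Zab against WT, Zab+MYC against MYC, Zab+MYC against Zab, and interaction. Members called numbered 23, 15, 9, 14 and 19. Among the 19 members whose transcript was the same in all 8 libraries they numbered 12, 10, 4, 8 and 12, and among all such genes 2831, 1360, 1044, 1447 and 1496. Fewer genes were tested there, and 1 of the 19 members also lost its call, in Zab+MYC against MYC. DESeq2 called 23, 11, 7, 9 and 12 members and 3997, 886, 709, 925 and 1141 genes. It gave an adjusted p for 35, 33, 29, 34 and 32 of the 35 members, and those without one count as not called. By edgeR 25, 14, 13, 13 and 18 members and 5905, 2319, 2417, 2523 and 2750 genes were called. The cause of these differences between tools was not tested. On the deposited scale 24 members and 3522 genes were called in Zab+MYC against MYC, and 5018 genes in Zab against WT. On that scale the sign changed for 14 of 35 members between Zab and WT, for 6 between Zab+MYC and MYC, for 6 between Zab+MYC and Zab and for 5 in the interaction. Those called on either scale were, for Zab against WT, AK4 (-0.47), APRT (-0.49), CAD (-0.069), GUK1 (-0.45), IMPDH1 (-0.092), IMPDH2 (-0.44), NME2 (-0.20), PAICS (-0.44) and SHMT2 (-0.51), and, for Zab+MYC against MYC, ATIC (-0.28) and DTYMK (-0.22), with the shift of all genes already given.

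Leaving out each library in turn gave 23 to 24, 13 to 16, 4 to 10, 10 to 15 and 14 to 17 members, and 4723 to 5724, 1649 to 2303, 1076 to 2054, 1702 to 2635 and 2102 to 2422 genes. Of 80 member calls 21 ended when some 1 library was left out, none of them in MYC against WT. Same-numbered libraries did not deviate together (correlations -0.023 to 0.014), and the replicate block left the members' counts at 23, 15, 9, 14 and 19. RLE factors, library totals, filters, pseudocounts and the fit of 4 libraries alone kept every count of members within 1.5 times. With each pair summed as 1 sample, among the 35 tested members the counting interval of the ratio lay above 1 for 22, 13, 1 and 18 and below 1 for 3, 5, 15 and 1 in the 4 pairwise comparisons. The same counts over all genes were not made, so these have no share to be read against. CTPS2, at 1 tag in Zab+MYC and 7 in Zab, also had an interval below 1 for Zab+MYC against Zab (0.00277 to 0.972). Depth limits the low members, of which CTPS2 was not testable.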
